A study of Mus musculus with 11 samples.

Results

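The ion and metal solute carriers are membrane proteins that move protons, bicarbonate, chloride, sulphate, phosphate, calcium, magnesium, zinc, manganese and iron. Here they were taken by symbol as every gene of 13 Slc families (Slc4, Slc8, Slc9, Slc11, Slc12, Slc20, Slc24, Slc26, Slc30, Slc34, Slc39, Slc40 and Slc41). This gave 82 symbols in 85 gene entries of the 35683 genes in the table, with 470 annotated transcripts. Slc26a6, Slc30a1 and Slc30a4 have 2 entries each with equal values, so each entry of these holds a share of its symbol's reads.

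RNA was sequenced from the full-thickness colon of 2-week-old mice, 6 Tnfr1-/- and 5 wild type. The Tnfr1-/- mice lack TNFR1, a receptor for the cytokine TNF encoded by Tnfrsf1a, and the series asks what its loss does in early life. The labels give no further allele, agent, strain, sex, litter or batch for either group. Nor do they say whether the knockouts and wild types were littermates. Each library is 1 mouse by its label, and p-values measure the spread between these samples.

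At this age the pups are not yet weaned. The colonic surface epithelium takes up sodium chloride through paired sodium-proton and chloride-bicarbonate exchangers. Crypt cells load chloride from the blood side with a sodium-potassium-chloride cotransporter and secrete it. Iron enters a cell through the divalent metal transporter DMT1 (Slc11a2) and leaves it through ferroportin (Slc40a1), the only known iron exporter of mammals. Zinc is brought into the cytosol by the ZIP importers (Slc39) and moved out of it by the ZnT exporters (Slc30).

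The values are abundances, TPM divided by a size factor of each library. They are on a scale per transcript length, so levels of different genes can be compared. A gene was tested where its abundance was at least 1 in at least 5 libraries, and a call needed a limma adjusted p under 0.05 over all 15079 genes tested. Estimated depth was 35.2 ± 3.70 M reads in Tnfr1-/- colons (SD, n = 6) and 33.6 ± 5.35 M in wild-type colons (SD, n = 5). Tnfrsf1a itself averaged 22.4 ± 3.54 in Tnfr1-/- colons and 67.1 ± 5.04 in wild-type colons (SD, n = 6 and 5). It was the 1 gene called among all genes, with a log2 fold change of -1.57 (SE 0.10, limma adjusted p = 8.5e-05).

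Some libraries stood apart in their cell markers. The summed abundance of 10 epithelial markers, led by Lgals4, ran from 7216 to 10231 in Tnfr1-/- colons. In wild-type colons it was 10634 in replicate 1 and 12537 in replicate 2, against 7823 to 8327 in the other 3. Skeletal muscle markers, led by Acta1, summed to 8095 in Tnfr1-/- replicate 2 and 2600 in Tnfr1-/- replicate 5, to 1787 in wild-type replicate 5, and to 413 to 1012 in the other 8 libraries. Smooth muscle markers were highest in wild-type replicate 4, at 12079, against 4630 to 8907 in the other libraries. In bulk tissue, fewer cells of a type and less RNA per cell cannot be told apart. The 5 colon identity markers found, led by Cdx1, were at 1 or more in every library and summed to 312 to 419 in Tnfr1-/- colons and 339 to 455 in wild-type colons. Of 8 small-intestinal markers, Defa24, Gata4 and Lct stayed below 1 in every library, and the 8 summed to 150 to 193 in Tnfr1-/- colons and 198 to 265 in wild-type colons.

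No carrier was called. Of the 59 entries tested, 0 reached a limma adjusted p under 0.05, against 0.00663% of all genes, and the smallest adjusted p among the carriers was 0.455. At an unadjusted p under 0.05 there were 2 carriers, which is 3.39% of those tested, against 9.37% of all genes. The groups overlapped for all 59, while they did not overlap for 1.49% of all genes. The median log2 fold change was -0.03 over the carriers and -0.01 over all genes tested. The estimates lay above 0 for 24 entries and below 0 for 35, against 7224 and 7855 of all genes tested. The 35 include both equal entries of Slc26a6, Slc30a1 and Slc30a4, so they overstate the number of separate carriers.

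How large a difference these data leave room for can be read from the intervals. For fold changes of at most 1.5 in either direction, the 95% interval stayed within that bound for 50 of the 59 carriers (84.7%, against 82.3% of all genes). It lay inside 2-fold for 56 of them (94.9%, against 93.2%). The summed abundance of all carriers was 2110 ± 201 in Tnfr1-/- colons and 2124 ± 128 in wild-type colons (SD, n = 6 and 5).

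**Figure D1:**
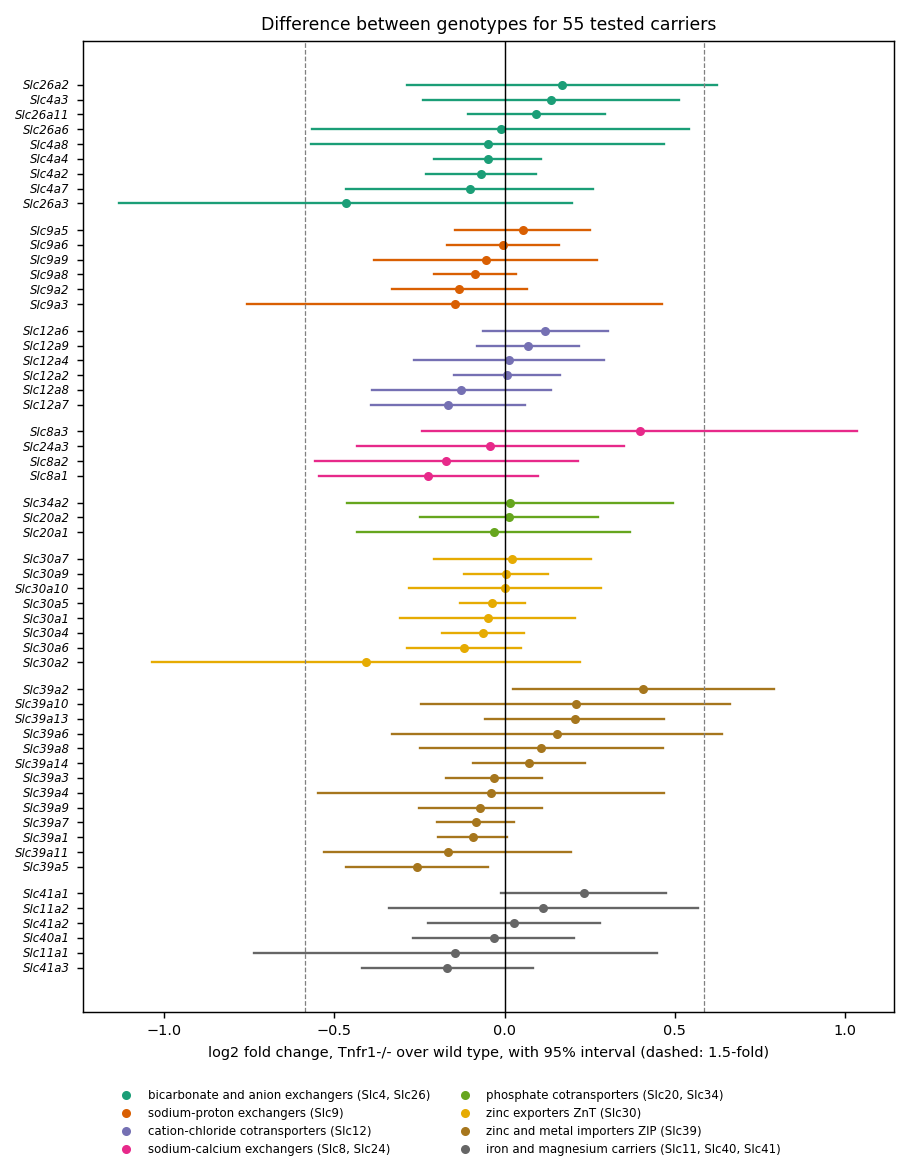
Log2 fold change, Tnfr1-/- over wild type, of 55 tested carrier symbols with 95% intervals, on the log2(abundance + 0.5) scale, grouped by role and sorted within each group. Points to the right of 0 are higher in Tnfr1-/- colons, dashed lines mark 1.5-fold, and the intervals of Slc39a5 and Slc39a2 are the only ones that leave out 0.

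The iron carriers were the most abundant of all. Slc40a1 (ferroportin, chr1:45908068-45926523, minus strand, GRCm38) ran from 418 through a median of 487 to 571 in Tnfr1-/- colons, and was 511, 421, 521, 452 and 585 in wild-type replicates 1 to 5. Slc11a2 (DMT1, chr15:100387898-100425072, minus strand) ran from 317 through a median of 471 to 614 in Tnfr1-/- colons, and was 352, 323, 386, 466 and 586 in wild-type colons. The groups overlapped over most of their range for both genes.

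Among all 15079 tested genes Slc40a1 ranked 252 and Slc11a2 ranked 266 by mean abundance. Slc40a1 averaged 488 ± 66.0 in Tnfr1-/- colons and 498 ± 64.1 in wild-type colons (SD, n = 6 and 5), with a log2 fold change of -0.03 (SE 0.11). Slc11a2 averaged 461 ± 123 and 423 ± 106 in the same groups, with a log2 fold change of 0.11 (SE 0.21). The ranges of these genes overlapped each other, and whether their levels differ within the same libraries was not tested. Together they held 44.6 ± 4.87% of the summed carrier abundance in Tnfr1-/- colons and 43.2 ± 5.04% in wild-type colons (SD, n = 6 and 5). The next carrier, Slc39a7, was at 76.1 ± 4.61 and 80.7 ± 4.19, and no other carrier reached a mean of 100.

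**Figure D2:**
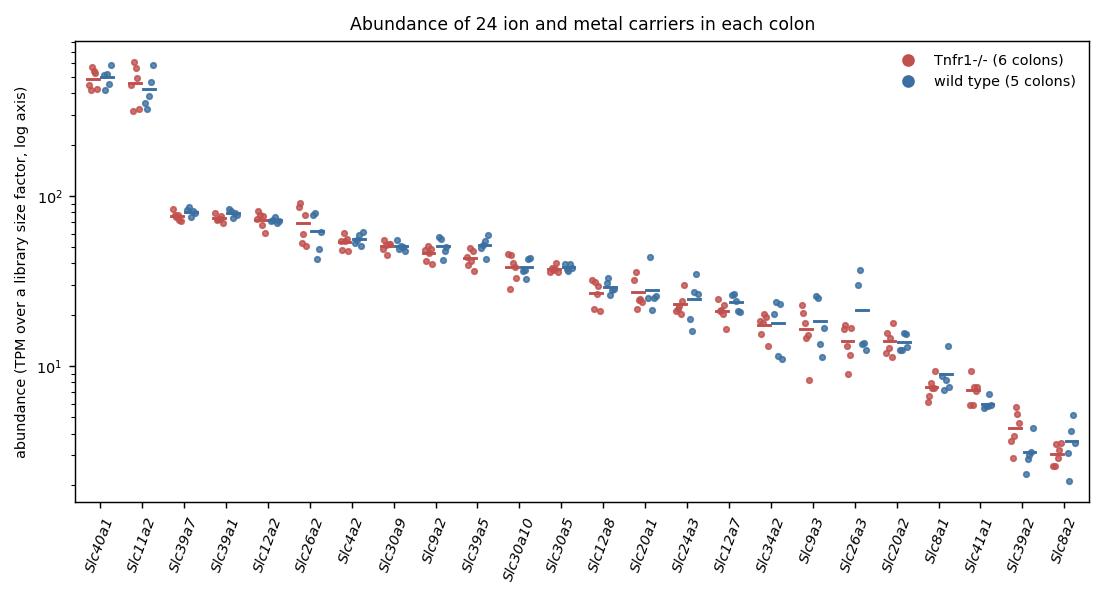
Abundance on a log axis of 24 carriers, ordered by their mean, with 1 point for each colon (Tnfr1-/- left, wild type right) and a bar at each group mean. Slc40a1 and Slc11a2 lie between 317 and 614, above every other carrier, and the points of both genotypes overlap for every gene.

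Both iron genes varied between colons, and Slc11a2 more. The highest of the 11 libraries had 1.94 times the lowest for Slc11a2 and 1.40 times for Slc40a1. In Tnfr1-/- colons replicate 3 was the highest for both genes. In wild-type colons replicate 5 was the highest and replicate 2 the lowest for both.

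Annotated transcripts were examined because iron genes are controlled through their untranslated ends. An iron-responsive element is a short hairpin in an mRNA. The iron regulatory proteins Aco1 and Ireb2 bind it when iron is low, which blocks translation where it lies before the coding sequence and stabilises the mRNA where it lies after. The hairpin was searched on the transcript strand as a C, 5 bases, the loop CAGTGN and 5 bases that pair with the first 5, which makes 17 bases. A match was found in 890 of 141767 GENCODE M21 transcripts (0.628%). The sequences below are those of the main ferroportin transcript and of the known partners for which the search returned a match. Fth1, the ferritin heavy chain, was also on the list of partners, and no match was returned for it. The reason was not tested. Capitals mark the loop, and the lines run from Slc40a1 and Ftl1 (before the coding sequence) to Tfrc (after it, in order).
Slc40a1, chr1:45925471-45925487, minus strand: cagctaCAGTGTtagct
Ftl1, chr7:45459785-45459801, minus strand: cttcaaCAGTGTttgaa
Tfrc, chr16:32631225-32631241, plus strand: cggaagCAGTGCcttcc
Tfrc, chr16:32631604-32631620, plus strand: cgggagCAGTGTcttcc
Tfrc, chr16:32631669-32631685, plus strand: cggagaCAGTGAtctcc
Tfrc, chr16:32631716-32631732, plus strand: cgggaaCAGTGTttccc

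The Slc40a1 hairpin lies before the coding sequence of ENSMUST00000027137.10. That transcript held 93.7% of the gene's abundance in Tnfr1-/- colons and 95.2% in wild-type colons. The next one, ENSMUST00000186822.1, is a processed transcript of 505 bases in which the search found no hairpin. It averaged 24.7 ± 6.94 in Tnfr1-/- colons and 18.0 ± 3.31 in wild-type colons (SD, n = 6 and 5), with a log2 fold change of 0.42 (SE 0.20, limma adjusted p = 0.615). Its groups overlapped. The retained-intron transcripts ENSMUST00000186755.1 and ENSMUST00000191247.6 each held under 1% of the gene in both groups.

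Slc11a2 was spread over more transcripts. ENSMUST00000138843.7 held 64.5% of the gene's abundance in Tnfr1-/- colons and 67.2% in wild-type colons. ENSMUST00000154331.1, of 389 bases, held 25.2% and 22.8% in the same groups. The remainder lay with ENSMUST00000154676.1 (5.42% and 5.33%), ENSMUST00000023774.11 (3.76% and 3.20%) and ENSMUST00000124324.1 (0.964% and 1.44%). No transcript of this gene held a match to the searched letters. That says only that these letters are not there. The search required all 5 stem bases to pair, so a hairpin with an unpaired base in its stem could be missed. Whether this gene carries such an element was not tested. With single-end reads of 75 bases, a split of reads between overlapping transcripts is an estimate of the authors' software.

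**Figure D3:**
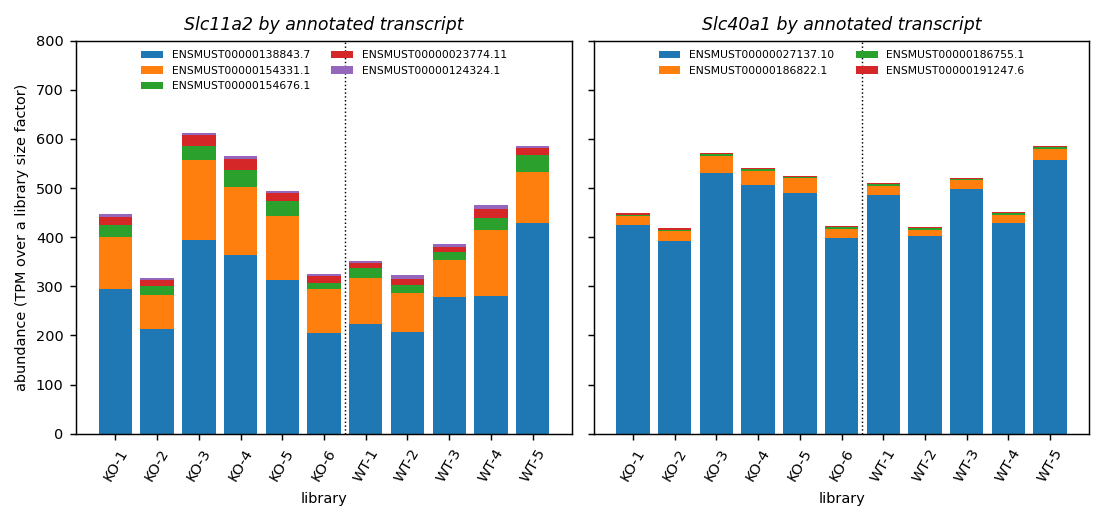
Abundance of the annotated transcripts of Slc11a2 and Slc40a1 with a mean of at least 1, stacked by library, Tnfr1-/- libraries (KO) left of the dotted line and wild-type libraries (WT) right of it. ENSMUST00000027137.10 fills nearly all of each Slc40a1 bar, and ENSMUST00000138843.7 and ENSMUST00000154331.1 fill most of each Slc11a2 bar.

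The list of genes for iron uptake, storage and control had 32 tested members of 39, and limma called 0. At an unadjusted p under 0.05, 0 were higher and 2 were lower in Tnfr1-/- colons (4.20% and 5.17% of all genes were higher and lower). Ftl1, the ferritin light chain, averaged 1277 ± 119 in Tnfr1-/- colons and 1426 ± 74.0 in wild-type colons (SD, n = 6 and 5), with a log2 fold change of -0.16 (SE 0.07, limma adjusted p = 0.519). Fbxl5, the iron-sensing ubiquitin ligase subunit that marks an iron regulatory protein for decay, averaged 39.6 ± 2.64 and 43.3 ± 2.52, with a log2 fold change of -0.13 (SE 0.06, adjusted p = 0.525). Tfrc, the transferrin receptor, averaged 137 ± 10.2 and 135 ± 12.02. The next smallest p-values of this list belonged to Iscu, an iron-sulphur cluster scaffold (63.1 ± 4.31 and 67.1 ± 3.95), and Cp, the ferroxidase ceruloplasmin (5.92 ± 1.08 and 5.04 ± 1.03).

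Slc11a1, the phagosomal metal transporter of macrophages, was at 2.01 ± 0.892 in Tnfr1-/- colons and 2.26 ± 0.938 in wild-type colons. The magnesium carrier Slc41a1 ran from 5.86 through a median of 7.32 to 9.34 in Tnfr1-/- colons, and was 5.69, 5.79, 5.84, 6.83 and 5.89 in wild-type colons. It had the third smallest p of the carriers, with a log2 fold change of 0.23 (SE 0.11, limma adjusted p = 0.549). Of the 6 Tnfr1-/- colons, 4 lay above every wild-type colon, and the groups overlapped. Slc41a2 and Slc41a3, of the same family, had log2 fold changes of 0.03 (SE 0.11) and -0.17 (SE 0.11).

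The zinc importers held both carriers at an unadjusted p under 0.05, 1 in each direction. Slc39a5 (chr10:128395931-128401229, minus strand) encodes ZIP5, known as a zinc importer of the blood-facing membrane of intestinal epithelium and of the pancreas. Its abundance was 43.9, 39.4, 49.1, 41.5, 47.1 and 36.1 in Tnfr1-/- replicates 1 to 6, and 49.6, 51.4, 53.9, 42.7 and 59.0 in wild-type replicates 1 to 5. Of the 5 wild-type colons, 4 lay above every Tnfr1-/- colon, and wild-type replicate 4 lay among these. Without that library the log2 fold change was -0.32 (limma adjusted p = 0.266), in a fit where 11.7% of all genes had an unadjusted p under 0.05. That fit is given because this library made the groups overlap, so a wider difference was fixed in advance and adds no support.

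The means were 42.8 ± 4.84 in Tnfr1-/- colons and 51.3 ± 5.95 in wild-type colons (SD, n = 6 and 5). On the log2 scale the difference was -0.26 (SE 0.09, limma adjusted p = 0.455). ENSMUST00000042666.12, the main transcript of the gene, had 36.8 ± 4.17 and 46.0 ± 5.70 in the same groups, with a log2 fold change of -0.32 (SE 0.10, limma adjusted p = 0.496). In the authors' deposited table this transcript had a p-value of 0.00516 and a q-value of 0.86. The small-intestinal marker sum was lower in Tnfr1-/- colons too. It was 150 to 193 there and 198 to 265 in wild-type colons, so the groups did not overlap. Most of this lay in Fabp2 (81.7 ± 13.1 and 113 ± 46.1) and Alpi (69.1 ± 14.2 and 93.7 ± 18.1). Of the 8 markers 1 had an unadjusted p under 0.05 and limma called 0. Within the wild type, replicate 5 had the highest Slc39a5 and the lowest marker sum. The part of these markers in the Slc39a5 difference was not tested.

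Slc39a2 (chr14:51892889-51896745, plus strand) encodes ZIP2, a zinc importer of the cell surface. Its abundance was low, with 3.63, 2.86, 3.87, 5.73, 5.20 and 4.62 in Tnfr1-/- replicates 1 to 6, and 2.32, 2.82, 3.00, 3.13 and 4.29 in wild-type replicates 1 to 5. The groups overlapped through wild-type replicate 5 and Tnfr1-/- replicate 2. Its difference between genotypes on the log2 scale was 0.41 (limma adjusted p = 0.515, SE 0.17). Between 118 and 404 estimated reads stood behind each of these values. ENSMUST00000160668.1, annotated as a retained intron, made up 52.8% of the gene in Tnfr1-/- colons and 50.6% in wild-type colons, and had a log2 fold change of 0.41 (SE 0.14, limma adjusted p = 0.519).

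No importer passed the test, and the others had an unadjusted p of 0.05 or more. Slc39a7, which releases zinc from the endoplasmic reticulum, ran from 71.4 to 84.1 in Tnfr1-/- colons and from 74.7 to 85.9 in wild-type colons, with a log2 fold change of -0.08 (SE 0.05). Slc39a1, an importer of the cell surface, averaged 74.0 ± 3.60 and 79.0 ± 3.71, with a log2 fold change of -0.09 (SE 0.05, limma adjusted p = 0.566). Slc39a4, the importer for dietary zinc on the gut lumen side, whose loss causes acrodermatitis enteropathica in humans, averaged 44.6 ± 13.8 and 45.6 ± 12.3. It was one of the more variable importers, with 68.1 in Tnfr1-/- replicate 1 and 28.5 in wild-type replicate 3. Slc39a14, which also carries manganese and iron, averaged 9.61 ± 0.451 and 9.15 ± 1.12, and Slc39a8, which carries manganese and zinc, ran from 10.7 to 23.0 and from 14.1 to 16.6. Slc39a6, Slc39a8 and Slc39a10 were highest in Tnfr1-/- replicate 6, at 18.7, 22.96 and 11.99. Over the 13 tested importers of 14 the median log2 fold change was -0.03.

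The reads of Slc39a7 fell on transcripts that are hard to separate. ENSMUST00000025186.14 and ENSMUST00000169397.7 held 36.8% and 35.8% of the gene in Tnfr1-/- colons, and 36.9% and 36.8% in wild-type colons. The retained-intron transcript ENSMUST00000170491.7 held 26.5% and 24.3%. None of these passed the test (limma adjusted p between 0.865 and 0.925). A coding transcript of the importer gene Slc39a3, ENSMUST00000168076.1, was at 2.79 ± 0.948 in Tnfr1-/- colons and 4.24 ± 1.08 in wild-type colons (SD, n = 6 and 5), a log2 fold change of -0.54 (SE 0.21, limma adjusted p = 0.568). This transcript held 23.5% of the gene in Tnfr1-/- colons and 34.9% in wild-type colons, while the gene as a whole averaged 11.9 ± 0.820 and 12.1 ± 0.863.

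The zinc exporters had the most even sum of the 8 role groups. Their summed abundance was 209 ± 10.2 in Tnfr1-/- colons and 215 ± 3.92 in wild-type colons (SD, n = 6 and 5), and the highest library had 1.16 times the lowest, against 1.24 to 1.99 times in the other groups. Slc30a9 led them at 50.6 ± 3.26 in Tnfr1-/- colons and 50.4 ± 2.85 in wild-type colons (SD, n = 6 and 5), with a log2 fold change of 0.00 (SE 0.06). Slc30a10, known chiefly as a manganese exporter, averaged 38.4 ± 6.88 and 38.0 ± 4.47. Slc30a5 averaged 37.2 ± 1.63 and 38.1 ± 1.53, with a log2 fold change of -0.04 (SE 0.04), and its highest library had 1.12 times the lowest. With Slc30a6, at 8.62 ± 0.418 and 9.45 ± 1.13, it forms a pair that loads zinc into the early secretory pathway.

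Slc30a1, the exporter of the cell surface, is a known target of the zinc-sensing factor MTF1, which also drives the metallothioneins. Each of its 2 equal entries averaged 11.7 ± 2.16 in Tnfr1-/- colons and 12.03 ± 1.11 in wild-type colons (SD, n = 6 and 5), with a log2 fold change of -0.05 (SE 0.12). The core of the metal-responsive element was searched as TGCACNC or TGCGCNC on both strands in RefSeq promoter windows (250 bases before to 50 after the start, GRCm38.p6), and matches in overlapping positions were each counted. At least 2 matches were found in 7.11% of 32851 windows. Among the carriers, 63 symbols had a window, and 8 of them (12.7%) held at least 2 matches, of which 4 were among the 9 zinc exporters with a window. The Mt1 and Mt2 windows held 3 and 4 matches. The Slc30a1 window is shown because this gene and the metallothioneins share the element, with the matches, which read on the minus strand, in capitals.
Slc30a1, chr1:191906531-191906830, plus strand: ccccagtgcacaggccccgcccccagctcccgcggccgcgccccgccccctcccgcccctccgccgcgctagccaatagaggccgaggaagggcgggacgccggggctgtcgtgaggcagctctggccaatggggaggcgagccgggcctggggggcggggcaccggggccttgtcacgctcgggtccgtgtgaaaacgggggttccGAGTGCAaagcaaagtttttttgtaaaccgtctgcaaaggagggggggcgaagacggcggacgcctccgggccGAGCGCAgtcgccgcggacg

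Of 10 genes in the zinc and metallothionein list, 9 were tested, limma called 0 and 0 had an unadjusted p under 0.05. Mt2, a zinc-binding metallothionein, ran from 757 to 1403 in Tnfr1-/- colons and from 998 to 2205 in wild-type colons, with a log2 fold change of -0.34 (SE 0.23, limma adjusted p = 0.684). Mt1 averaged 1458 ± 261 and 1777 ± 608. The smallest p-values of this list belonged to Mcoln1, a lysosomal cation channel (30.2 ± 1.59 and 33.97 ± 3.97), the zinc receptor Gpr39 (4.96 ± 0.563 and 5.83 ± 0.831), Mtf1 (7.25 ± 0.604 and 8.26 ± 1.61) and S100a8, a subunit of calprotectin (12.5 ± 13.6 and 5.60 ± 2.37).

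Slc30a2, which moves zinc into secretory vesicles, varied most of the exporters. It ran from 5.78 through a median of 8.29 to 12.8 in Tnfr1-/- colons, and was 9.65, 5.48, 19.5, 10.9 and 15.9 in wild-type colons. The log2 fold change of -0.41 (SE 0.29) had a 95% interval from -1.04 to 0.22. Without wild-type replicates 1 and 2 it was -0.80 (limma adjusted p = 0.179), at an unadjusted p under 0.05 as were 16.5% of all genes. Those libraries had the lowest wild-type values, so a wider difference was fixed in advance and adds no support.

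Wild-type replicates 1 and 2 stood apart in Slc26a3, but not in every exchanger of the epithelium. Slc26a3 (chr12:31390871-31473917, plus strand) is the chloride-bicarbonate exchanger of the colonic surface, and its loss causes congenital chloride diarrhoea in humans. Its abundance was 16.5, 17.4, 13.2, 8.91, 11.6 and 16.6 in Tnfr1-/- replicates 1 to 6, and 29.9, 36.8, 13.5, 13.6 and 12.4 in wild-type replicates 1 to 5. The other 3 wild-type colons lay within the Tnfr1-/- range.

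The difference in Slc26a3 over all libraries was -0.47 on the log2 scale (limma adjusted p = 0.666, SE 0.30), and without wild-type replicates 1 and 2 it was 0.06. Those libraries had the highest values, so a shift upward was fixed in advance. The epithelial marker sum was also highest in those 2 libraries, and its part in this was not tested. Slc9a3 (chr13:74121457-74169442, plus strand), the sodium-proton exchanger NHE3 that works beside Slc26a3, was also highest in wild-type replicates 1 and 2. It ran from 8.30 through a median of 16.6 to 22.7 in Tnfr1-/- colons, and was 25.9, 25.1, 13.4, 11.2 and 16.8 in wild-type colons, and Tnfr1-/- replicate 1 came next to those 2 libraries. Its log2 fold change was -0.15 (SE 0.28) over all libraries and 0.21 without wild-type replicates 1 and 2. This shift upward was fixed in advance too, since the libraries left out were the highest.

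Slc9a2 (NHE2), the most abundant of the sodium-proton exchangers, averaged 45.8 ± 4.35 in Tnfr1-/- colons and 50.4 ± 6.21 in wild-type colons (SD, n = 6 and 5), a log2 fold change of -0.13 (SE 0.09). Of the 7 exchangers of this family that were tested, the 95% interval of 6 lay inside 1.5-fold, and Slc9a3 was the exception.

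Slc26a2, a sulphate transporter, was the most abundant anion exchanger. It ran from 50.7 through a median of 68.1 to 91.2 in Tnfr1-/- colons, and was 77.2, 79.7, 42.8, 48.4 and 61.2 in wild-type colons. Tnfr1-/- replicates 1 and 2, at 85.6 and 91.2, were the highest libraries. Its log2 fold change was 0.17 (SE 0.21), and 0.42 without wild-type replicates 1 and 2 (limma adjusted p = 0.355). Those libraries had the highest wild-type values, so a shift upward was fixed in advance and adds no support. Slc4a2 (AE2), a chloride-bicarbonate exchanger of the blood-facing membrane, averaged 53.2 ± 5.10 and 55.8 ± 4.27, with a log2 fold change of -0.07 (SE 0.07). A retained-intron transcript of it, ENSMUST00000198786.1, averaged 2.53 ± 0.419 and 1.97 ± 0.129 (log2 fold change 0.28, SE 0.12, limma adjusted p = 0.579). The sodium-bicarbonate cotransporters Slc4a4 and Slc4a7 averaged 9.25 ± 0.804 and 13.8 ± 2.01 in Tnfr1-/- colons, and 9.58 ± 0.638 and 15.2 ± 4.17 in wild-type colons. Each entry of Slc26a6, another apical anion exchanger, averaged 3.06 ± 0.477 and 3.33 ± 1.57. Its lowest libraries were wild-type replicates 1 and 2, at 1.57 and 1.92, against 2.34 to 3.73 in Tnfr1-/- colons and 3.41 to 5.00 in the other 3 wild-type colons. Without wild-type replicates 1 and 2 its log2 fold change moved to -0.45 (limma adjusted p = 0.202), against -0.01 over all libraries. Leaving out the lowest libraries fixed the direction of this shift in advance, so it adds no support.

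Among the cation-chloride cotransporters all 6 tested members had a 95% interval inside 1.5-fold. Slc12a2 (NKCC1), which loads chloride for secretion, averaged 72.4 ± 7.58 in Tnfr1-/- colons and 71.7 ± 2.18 in wild-type colons (SD, n = 6 and 5), a log2 fold change of 0.01 (SE 0.07). Slc12a7 (KCC4), a potassium-chloride cotransporter, averaged 21.1 ± 2.77 and 23.7 ± 2.73, a log2 fold change of -0.17 (SE 0.10). Slc12a8 averaged 27.0 ± 4.82 and 29.2 ± 2.65. For all 3 the lowest library was Tnfr1-/- replicate 6.

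The partner list for bicarbonate, proton and chloride handling had 40 tested genes of 47, of which limma called 0. At an unadjusted p under 0.05, 2 were higher and 1 was lower in Tnfr1-/- colons. That is 7.50% of the list, against 9.37% of all genes (4.20% higher and 5.17% lower). Atp12a, the proton-potassium pump of the distal colon, ran from 114 through a median of 147 to 197 in Tnfr1-/- colons, and was 104, 117, 91.5, 94.8 and 126 in wild-type colons. The difference in Atp12a was 0.47 on the log2 scale (limma adjusted p = 0.398, SE 0.15), the smallest p of the partner lists. Best2, a bicarbonate channel of goblet cells, averaged 24.7 ± 4.47 and 18.0 ± 4.56 (log2 fold change 0.46, SE 0.17, limma adjusted p = 0.451). Car1, a carbonic anhydrase of the colonic surface, averaged 1017 ± 209 and 1418 ± 368 (log2 fold change -0.46, SE 0.19, limma adjusted p = 0.507). Slc9a3r1, a scaffold that binds NHE3, averaged 90.0 ± 3.63 and 99.0 ± 12.1.

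The phosphate carriers were led by Slc20a1, a sodium-phosphate cotransporter of most cells. It ran from 21.5 through a median of 24.7 to 35.8 in Tnfr1-/- colons, and was 24.9, 43.5, 21.4, 25.1 and 25.6 in wild-type colons. Wild-type replicate 2 was the highest of all. Slc34a2, the intestinal phosphate cotransporter, averaged 17.4 ± 2.65 and 17.9 ± 6.29, and Slc20a2 averaged 13.97 ± 2.47 and 13.7 ± 1.64. The log2 fold changes of all 3 lay between -0.03 and 0.02.

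Of the sodium-calcium exchangers, 4 of 8 were tested. Slc24a3 averaged 23.2 ± 3.49 in Tnfr1-/- colons and 24.6 ± 7.32 in wild-type colons. Slc8a1 (NCX1), known from muscle, averaged 7.47 ± 1.09 and 8.94 ± 2.36, with its highest value, 13.01, in wild-type replicate 4, which also had the highest smooth muscle marker sum. Slc8a2 averaged 3.04 ± 0.418 and 3.60 ± 1.14. Slc8a3, chosen here after its values were seen, was 4.26 in Tnfr1-/- replicate 2 and 2.49 in Tnfr1-/- replicate 5, and between 0.873 and 1.49 in the other 9 libraries. Those 2 libraries also had the highest skeletal muscle marker sums. Wild-type replicate 5 had the next highest sum, 1787, and its Slc8a3 value was low, at 0.882. The part of these markers in the Slc8a3 values was not tested.

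The partner list for magnesium, calcium and phosphate had 23 tested genes of 28, and limma called 0. At an unadjusted p under 0.05 there was 1 gene, 4.35% of those tested, against 9.37% of all genes. It was Cnnm3, of a family tied to magnesium transport, with 9.87 ± 0.281 in Tnfr1-/- colons and 8.68 ± 1.18 in wild-type colons (log2 fold change 0.18, SE 0.08, limma adjusted p = 0.520). The magnesium channel kinase Trpm7 averaged 28.5 ± 2.51 and 25.8 ± 0.955, Mmgt2 averaged 27.0 ± 1.78 and 31.1 ± 4.29, and the growth factor receptor Fgfr1, which takes part in phosphate control, averaged 28.0 ± 3.35 and 24.1 ± 7.30. Over all 4 partner lists, 6 of 104 tested genes (5.77%) had an unadjusted p under 0.05, against 9.37% of all genes.

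**Figure D4:**
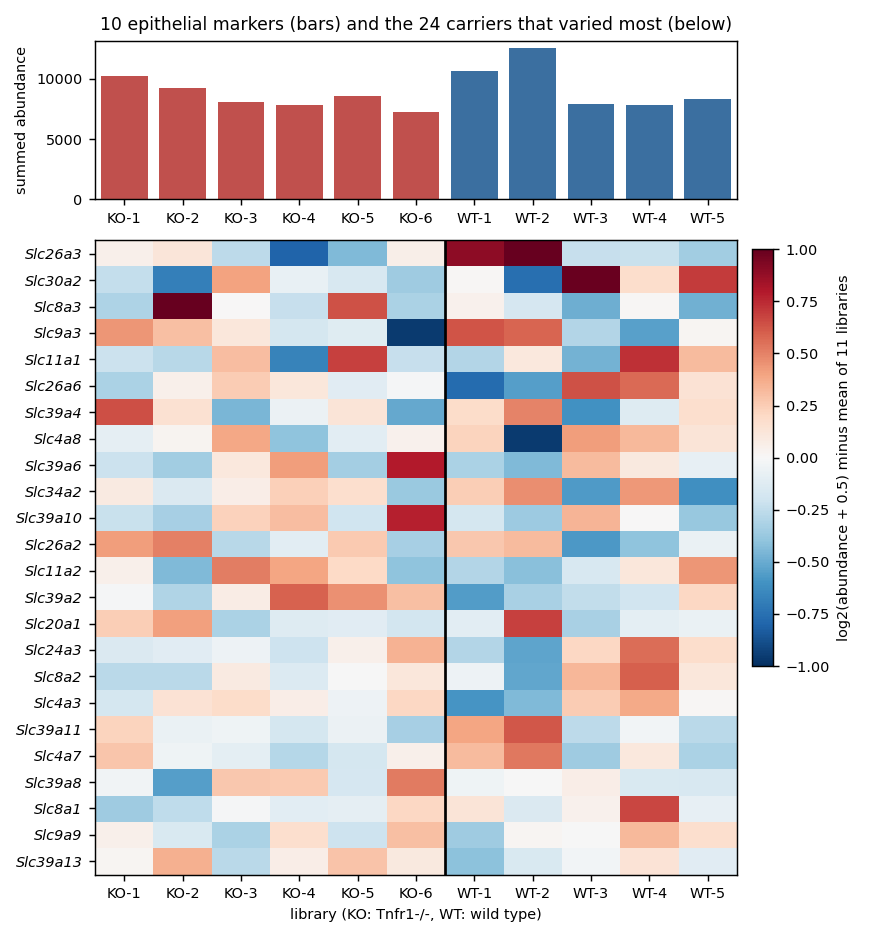
Upper panel, summed abundance of 10 epithelial markers in each library, bars from 0. Lower panel, deviation of log2(abundance + 0.5) from the mean of each gene across the 11 libraries for the 24 carriers that varied most, Tnfr1-/- libraries (KO) left of the line and wild-type libraries (WT) right of it. Slc26a3 and Slc9a3 were high in wild-type replicates 1 and 2, where the bars are highest, and Slc8a3 was high in Tnfr1-/- replicates 2 and 5.

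Many carriers varied between colons. The highest library had over 2 times the lowest for 20 of the 59 entries and under 1.3 times for 12. Tnfr1-/- replicate 6, with the lowest epithelial marker sum, was the lowest library for 13 of the 59 entries (22.0%), against 8.5% of all genes tested. These were Slc12a2, Slc12a7, Slc12a8, Slc30a5, Slc39a1, Slc39a5, Slc39a7, Slc39a9, Slc39a11, Slc4a2, Slc41a2, Slc9a2 and Slc9a3. The same library was the highest for 6 entries, both entries of Slc30a1 among them (10.2%, against 10.3% of all genes). Tnfr1-/- replicate 2 and wild-type replicate 1, with epithelial marker sums of 9207 and 10634, were each the lowest for 10 entries (16.9%, against 10.9% and 11.5% of all genes). These counts hold both equal entries of Slc30a1 and Slc30a4 for Tnfr1-/- replicate 2, and both of Slc26a6 for wild-type replicate 1, so they overstate the number of separate carriers. Wild-type replicate 2, with the highest epithelial marker sum, was the highest library for 13 entries (22.0%), against 13.2% of all genes. Among these were Slc26a3, Slc20a1, Slc34a2, Slc4a7, Slc39a7 and Slc39a11. The part of the epithelial markers in these library patterns was not tested.

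The 26 entries not tested come from 8 of the families. Slc24a5 was the highest of them, with 1.27 ± 0.664 in Tnfr1-/- colons and 1.08 ± 0.412 in wild-type colons (SD, n = 6 and 5), and the other 25 had a mean under 1. They include the kidney cotransporters Slc12a1 and Slc12a3, the kidney phosphate carriers Slc34a1 and Slc34a3, the red cell anion exchanger Slc4a1, the cochlear Slc26a5 and the pancreatic islet zinc exporter Slc30a8. Of the 26, 5 were listed at 0 in 1 or more libraries, and Slc30a8 was listed at 0 in 9 of 11.

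Over transcripts, 128 carrier transcripts were tested among 33276, and limma called 0, against 0.00902% of all transcripts. At an unadjusted p under 0.05 there were 5 (3.91%, against 8.26% of all transcripts), of which 3 were higher and 2 lower in Tnfr1-/- colons (4.33% and 3.93% of all transcripts were higher and lower). The groups overlapped for all 128, while they did not for 1.20% of all transcripts. The retained-intron transcript ENSMUST00000161169.2 of Slc30a9 was among the 5, at 1.67 ± 0.293 in Tnfr1-/- colons and 1.15 ± 0.235 in wild-type colons (log2 fold change 0.40, SE 0.14, limma adjusted p = 0.530). The authors' deposited table gives a p-value for 218 carrier transcripts. Of these, 5 (2.29%, against 4.39% of all transcripts with one) were under 0.05 and 0 had a q-value under 0.05, as did 0.00201% of all transcripts in the authors' deposited table.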

How the data were processed

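RNA from 11 colons was sequenced as single-end reads of 75 bases from stranded mRNA libraries, per the labels' protocols. CASAVA, kallisto, sleuth and the build mm10 are listed in the submitters' processing notes. Versions, and whether strand was used in counting, are not given in the sources used here. The authors deposited a normalized signal per transcript and library (TPM over a size factor). The authors' p-value and q-value columns and the log2 fold change are named per the file headers, and the deposited mean is on a natural log scale.

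Repeated transcript lines were dropped and values summed per Ensembl gene. Depth was estimated from steps of whole reads (fragment length 200, tolerance 0.02), where 52.2% to 54.2% of low values came out whole (2.26% to 2.44% at typical other steps). Groups were compared on log2(value + 0.5), which understates changes of low genes, with limma 3.58.1 (empirical Bayes, trend, two-sided) in R 4.3.3 and Benjamini-Hochberg adjustment over all genes or all transcripts tested. The fits were tested on simulated data. GENCODE M21 (GRCm38) gave positions. Software was matplotlib 3.10.9, numpy 2.4.6, pandas 2.3.3 and Python 3.11.15.

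The members, lists, roles and markers were chosen with earlier results of these data known. Named are members with an unadjusted p under 0.05, the 3 most abundant of each of 8 roles, the 4 smallest p-values of each partner list, the most abundant gene of the marker lists used, and the transcripts with the 6 smallest p-values or, in 3 genes, a mean of at least 1. A member that this rule picks is not reported here by name, though counts over all carriers include it. Other members are named for their role or library pattern, after their values were seen.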

Additional observations from a re-analysis of the deposited data

Results flagged for a closer look

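In 50 groups of values for named carriers and Tnfrsf1a, 3 had a single library well away from its group, where about 1 in 20, or 2.5, are expected by chance. Slc20a1 was 43.5 in wild-type replicate 2, and the nearest wild-type value was 25.6. Slc41a1 was 6.83 in wild-type replicate 4, and the nearest was 5.89. Slc8a1 was 13.01 in wild-type replicate 4, and the nearest was 8.75.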

How the results depend on the processing

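The count of carriers called was 0 under all 20 other settings (other pseudocounts, filters, scalings, the replicate block, each library left out, and the settings chosen after seeing the data: wild-type replicates 1 and 2 left out, and equal entries summed). The counts of carrier transcripts and partner genes called were also 0 wherever they were computed. The median log2 fold change of the carriers stayed between -0.05 and -0.01. The number of carriers at an unadjusted p under 0.05 was 2 in the main fit. It was 4 with no filter (of 85 entries, 4.71%, against 7.39% of all genes). With a filter at 10 it was 1 (of 38, 2.63%, against 10.49% of all genes). It was 6 with the replicate block (10.2%, against 10.2% of all genes). Without wild-type replicates 1 and 2 it was also 6 (10.2%, against 16.5% of all genes). With each library left out it was 1 to 5 (1.69% to 8.47%, against 7.15% to 11.7% of all genes). It was 1 without Tnfr1-/- replicate 4, 5 or 6 or wild-type replicate 1, 3 without Tnfr1-/- replicate 2 or wild-type replicate 2, 3 or 4, 4 without Tnfr1-/- replicate 3 and 5 without Tnfr1-/- replicate 1. Carriers whose groups do not overlap numbered 1 without wild-type replicates 1 and 2, where 9.09% of all genes do not overlap. This was Slc39a14, and the libraries left out are the only ones that made its groups overlap. Such carriers numbered 0 to 1 with each library left out (Slc39a5 without wild-type replicate 4, where 3.41% of all genes do not overlap and the library left out is the only one that made them overlap). Under the replicate block, Tnfr1-/- replicate 6 has no wild-type library of its number and adds nothing to the genotype estimate. The labels do not say whether same-numbered libraries were paired. Their deviations correlated between -0.22 and 0.38, over 0.1 in 3 of 5 pairs, and 2 of 5 wild-type libraries were closest to their own number. With so few pairs these values do not settle whether the libraries were paired.

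The estimate changed sign under at least 1 setting in 11 of 24 named carriers, none of them called, among them Slc26a3 (-0.47 over all libraries). Log2 fold changes with the replicate block were 0.0009 for Slc20a1, -0.0585 for Slc20a2, -0.0032 for Slc30a9, 0.0073 for Slc40a1 and 0.0310 for Slc9a3. Without wild-type replicates 1 and 2 they were -0.0812 for Slc11a2, 0.1481 for Slc20a1, -0.0813 for Slc20a2, 0.0559 for Slc26a3, -0.0354 for Slc30a10 and 0.2053 for Slc9a3. With each library left out they ran from -0.0268 to 0.0584 for Slc12a2, -0.1174 to 0.1343 for Slc20a1, -0.0585 to 0.0677 for Slc20a2, -0.1799 to 0.0916 for Slc24a3, -0.0558 to 0.0847 for Slc30a10, -0.0188 to 0.0360 for Slc30a9, -0.1348 to 0.1343 for Slc34a2, -0.0900 to 0.0287 for Slc40a1 and -0.3021 to 0.0310 for Slc9a3. The cause of these changes was not tested. Counting error and 6 against 5 colons limit carriers near an abundance of 1.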
